A study of Mus musculus with 87 samples.

Results

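The 40 genes described here are imprinted in the mouse: in at least some tissues they are transcribed from the copy inherited from 1 parent only. They were taken by name from a fixed list and make up 40 of the 26171 gene symbols measured. By chromosome, 10 lie in the distal 7 cluster (the H19/Igf2 and Kcnq1 domains), 3 in proximal 7 (the Peg3 domain), 6 in central 7 (the Prader-Willi/Angelman domain), 4 in distal 12 (the Dlk1-Meg3 domain), 5 in proximal 6, 4 in proximal 17 (the Igf2r domain), 4 on chromosome 2, 2 on chromosome 11 and 1 each on chromosomes 10 and 18. As background, 21 are known as maternally and 19 as paternally expressed. The reads were not split by allele, so every value below is the sum of both copies.

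Imprinted clusters are controlled by imprinting control regions, short stretches of DNA that are methylated in 1 of the germlines. The methylated copy is kept so after fertilisation by the zinc finger protein ZFP57 and its partners, while the unmethylated copy often gives rise to a long noncoding RNA, such as Kcnq1ot1 or Airn, across which neighbouring genes are silenced. Polycomb repressive complex 2 (PRC2), which places the mark H3K27me3 on histone H3, is a known silencer of several of these neighbours, above all in placental lineages. Many imprinted genes act on fetal and placental growth: Igf2, Plagl1, Peg3 and Mest are known from growth studies of paternally expressed genes, and H19, Cdkn1c, Phlda2 and Grb10 as maternally expressed restraints on growth.

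Suz12 is a core subunit of PRC2, and its exon 4 is alternatively spliced. The cells were 129-B13 mouse embryonic stem cells (ESC), grown in 20% serum with LIF, and neuronal precursors (NP) made from them through embryoid bodies, with retinoic acid added on day 4 and harvest on day 8; polyadenylated RNA was sequenced. In ESC the groups were wild type (WT, 3 samples), exon 4 always included (CSex4, 2) and exon 4 deleted (Deltaex4, 2). The submitters word Deltaex4 as a Suz12 knock-out deleting exon 4. A further group was full Suz12 knock-out (KO, 3). That knock-out was rescued with the long isoform (KO-L, 2) or the short isoform (KO-S, 2). The knock-out was also rescued with either isoform carrying the 3D mutation of the labels and placed in the Rosa26 locus (KO-L3D and KO-S3D, 2 each). In NP there were 4 WT samples and 2 each of 5 further genotypes, namely KO, its KO-L and KO-S rescues, CSex4 and Deltaex4, so every rescue group carries the knock-out as well. The labels do not say whether a genotype was 1 clone or whether the samples of a group were separate cultures, so the p-values measure the spread between these samples, which may be technical.

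Whole reads of every library were worked out from the deposited means, and levels are given as RPM, a gene's reads scaled to a library of 1000000 reads. The 32 libraries held between 23570194 and 47201666 reads. Libraries of a group are called a, b and c; these letters are names only. The authors' fold changes rest on 13 tables. Where an ESC group had 2 libraries (6 tables), they equal the mean log2 ratio to WT libraries b and c, with WT library a left out; the ESC KO table uses all 3. All ESC tables share the WT libraries, 3 NP tables share 1 pair of WT libraries (the first pair), the NP WT vs KO table uses the other pair (the second pair), and 4 NP tables share the KO libraries. Suz12 itself was at 149, 182 and 289 RPM in ESC WT against 61.9, 92.6 and 45.3 in ESC KO, and at 105 to 197 in NP WT against 43.9 and 41.9 in NP KO. In ESC KO-L3D it was at 66.4 and 96.5, overlapping the KO and below all WT libraries, and in Deltaex4 at 77.0 and 131. A gene was called higher or lower where the adjusted p of the authors' deposited table was under 0.05.

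Marker genes were read beside the labels. The summed level of 7 neural precursor markers was 412 to 1370 RPM in NP WT against 66.9 to 169 in ESC WT, and 6 pluripotent cell markers summed to 185 to 529 in NP WT against 3380 to 4630 in ESC WT. The NP CSex4 libraries kept pluripotent markers at 1950 and 1980 and had neural markers at 413 and 416. The NP KO libraries had neural markers at 111 and 117, inside the ESC WT range, so by these markers the NP KO libraries do not stand above ESC. Reads from a mixture were sequenced in every sample: fewer cells of a type and less RNA per cell cannot be told apart in any result below.

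In wild-type cells most of these genes stood higher in NP than in ESC. Of the 36 members with at least 1 RPM in some WT library, 23 were higher in all 4 NP WT libraries than in all 3 ESC WT libraries and 3 were lower (Phlda2, Tspan32 and Impact). Over all 15154 genes at that level, NP lay above ESC without overlap in 45.3% and below in 21.3%. No deposited table compares the cell types, and this order was not tested. Dlk1, a membrane protein of the Notch ligand family that restrains differentiation, went from 2.45, 2.55 and 1.53 RPM in ESC to between 155 and 221 in NP. Plagl1, a zinc finger transcription factor that is itself known to regulate other imprinted genes, went from 6.54, 5.56 and 3.83 to between 179 and 386. H19, the maternal long noncoding RNA of distal 7, went from 1.60, 1.38 and 12.7 to between 297 and 951, and Igf2, the fetal growth factor beside it, from 56.2, 50.3 and 21.2 to between 711 and 2110. Phlda2, which restrains placental growth, was the other way round, at 36.4 to 46.1 in ESC and 2.69 to 7.20 in NP. Snrpn and Slc22a2 stayed at or under 0.177 and 0.267 RPM in all 32 libraries. Snrpn overlaps Snurf in the genome, and their reads cannot be told apart.

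At least 1 call was made for 32 of the 40 members over the 13 comparisons. There were 104 calls, of which 39 were higher and 65 lower. Higher and lower refer to the first-named group, and 1 of the comparisons gives WT over KO. How many of all genes were called at least once was not counted, and the comparisons share libraries. In 99 of the 104 the libraries of the 2 groups did not overlap. The calls had already been picked by adjusted p, so this count is no separate support. The same share over all called genes was not worked out. The 8 members never called were Cdkn1c, Kcnq1, Tspan32, Snrpn, Mkrn3, Mirg, Copg2 and Slc22a2. Plagl1 was called in 7 tables, H19, Igf2 and Nnat in 6 each. The strand setting of the counting is not given in the sources used here, so reads of overlapping partners (Igf2r and Airn, Kcnq1 and Kcnq1ot1, Mest and Copg2) cannot be told apart.

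**Figure D1:**
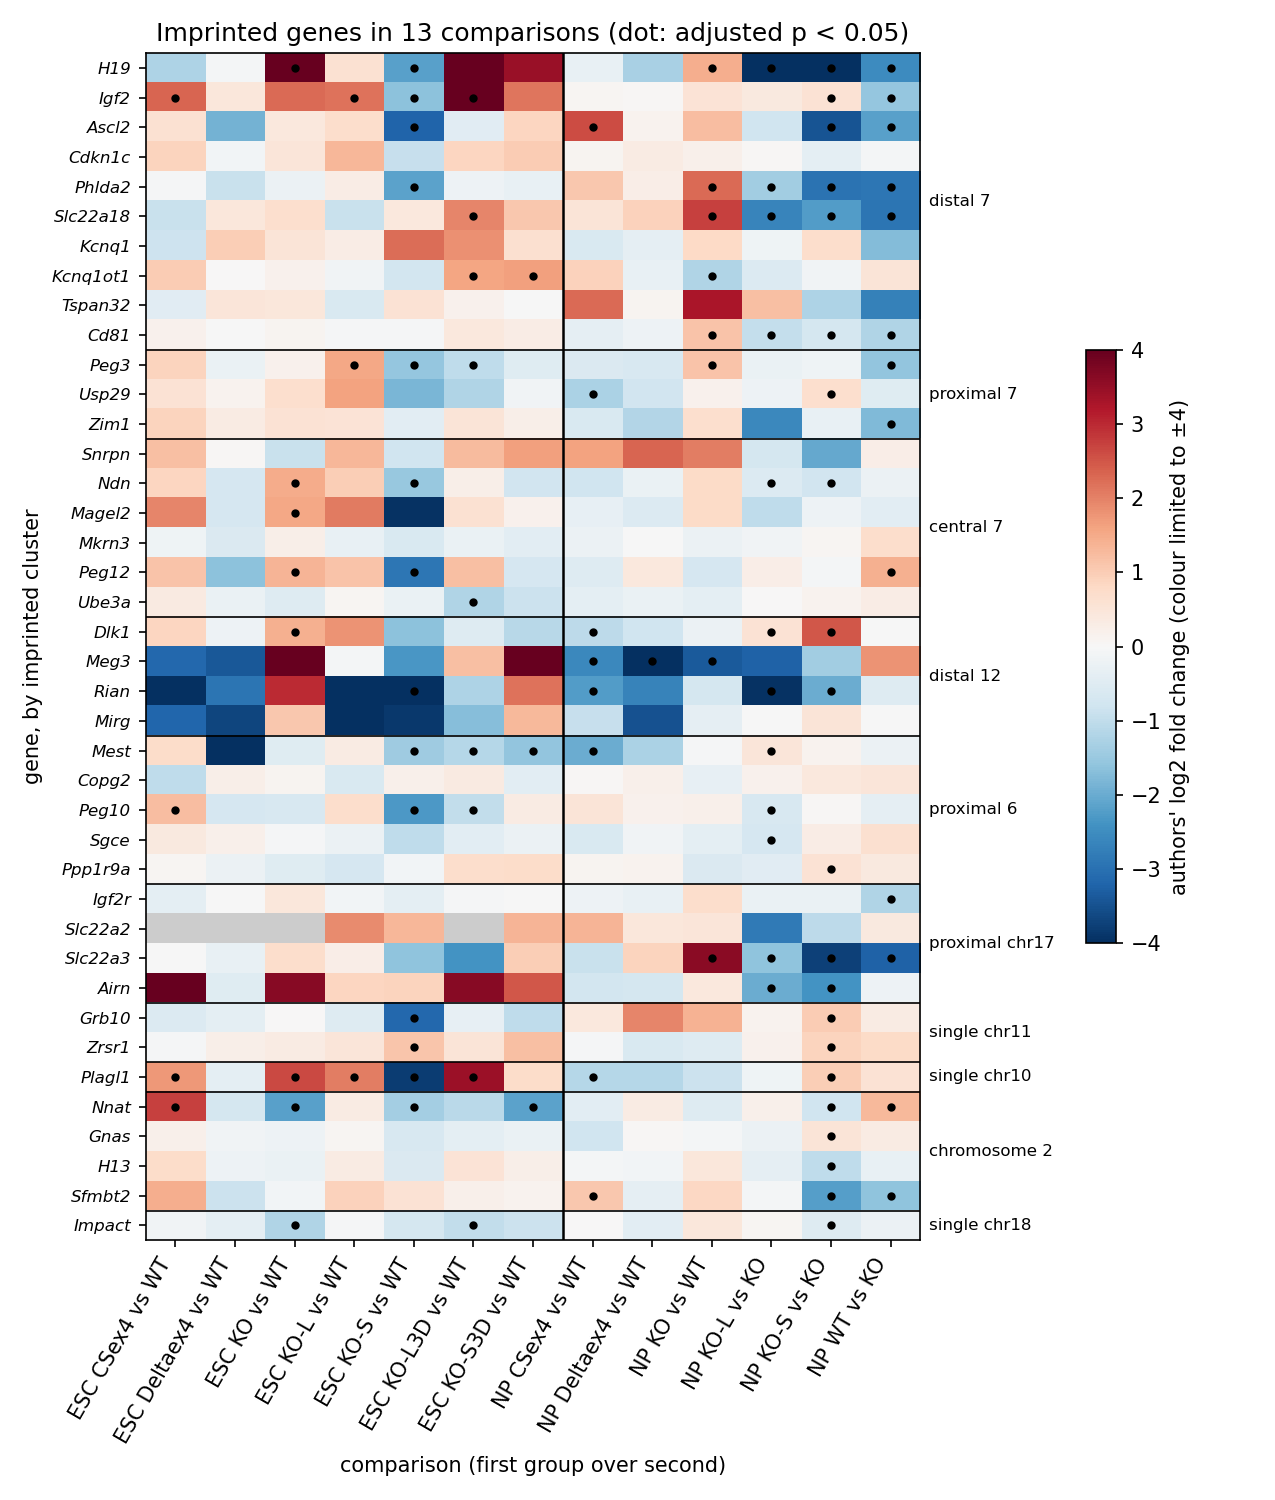
Log2 fold change of each of the 40 imprinted genes (rows, grouped by cluster) in each of 13 comparisons of the authors' deposited tables (columns; ESC left of the line, NP right), coloured from lower (blue) to higher (red) in the first-named group; dots mark adjusted p under 0.05 and grey marks genes with no value. The ESC KO-S column holds 13 lower calls, and H19 is called in 6 columns with either sign.

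In ESC lacking Suz12, 6 members rose and 2 fell. Of the 38 members tested, H19, Ndn, Magel2, Peg12, Dlk1 and Plagl1 were higher, beside 11.0% of all genes tested that were higher; Nnat and Impact were lower, beside 7.27% of all genes. The median log2 fold change was 0.44 over the members and 0.01 over all genes tested. By parental allele, 1 of 20 tested maternal and 5 of 18 tested paternal members rose, and both that fell are paternal. The central 7 cluster had the most calls, with 3 of its 5 tested members higher, all of them paternally expressed genes.

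H19 was at 301, 74.4 and 24.2 RPM in the KO libraries against 1.60, 1.38 and 12.7 in WT. All KO libraries were above all WT libraries, but KO library a was 12.4 times KO library c. Its log2 fold change in the authors' deposited table was 4.41 (standard error 1.16, adjusted p = 0.00185), and limma on the recovered reads without a replicate block gave 4.63 with an adjusted p of 0.146. Plagl1 was much more even, at 43.7, 37.5 and 30.6 in KO against 6.54, 5.56 and 3.83 in WT. The authors' deposited table gave it a log2 fold change of 2.65 (standard error 0.26, adjusted p = 2.89e-22).

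Ndn, a necdin-family protein known for halting the cell cycle in neurons, was at 29.0, 25.0 and 25.4 in KO and 10.5, 8.36 and 6.79 in WT. Its log2 fold change was 1.47 (standard error 0.23, adjusted p = 5.99e-09, authors' deposited table). The neighbouring Magel2, a partner of ubiquitin ligases, was at 4.14, 3.12 and 2.33 in KO against 1.23, 1.11 and 0.584 in WT, and Peg12, a relative of the GSK3-binding Frat proteins, at 7.56, 4.91 and 6.91 against 2.96, 3.17 and 1.06. Neither overlapped between the groups, and their log2 fold changes were 1.55 and 1.36 in the authors' deposited table (adjusted p = 0.0105 and 0.00304). Mkrn3 and Ube3a of the same cluster were not called; Ube3a is the ubiquitin ligase lost in Angelman syndrome.

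Nnat, which encodes the membrane protein neuronatin, was at 1.35, 9.78 and 6.83 RPM in KO against 21.4, 22.4 and 13.4 in WT. The authors' deposited table put its log2 fold change at -2.17 (standard error 0.51, adjusted p = 0.000358). Impact, an inhibitor of the stress kinase GCN2, was at 114, 116 and 101 against 268, 200 and 209, a log2 fold change of -1.20 (standard error 0.18, adjusted p = 2.28e-09, authors' deposited table). Trophoblast markers moved with these results: 5 of the 7 on that list rose, their sum was 160 to 215 RPM in KO against 73.0 to 108 in WT, and none was at 0. The pluripotent markers Nanog and Dppa5a and the mesenchyme marker Twist1 rose as well. The part of these markers in the result was not tested. Leaving out WT library a, WT library b or KO library a left 3 members called in limma, and leaving out KO library b or c left 5, against 8 with all libraries.

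**Figure D2:**
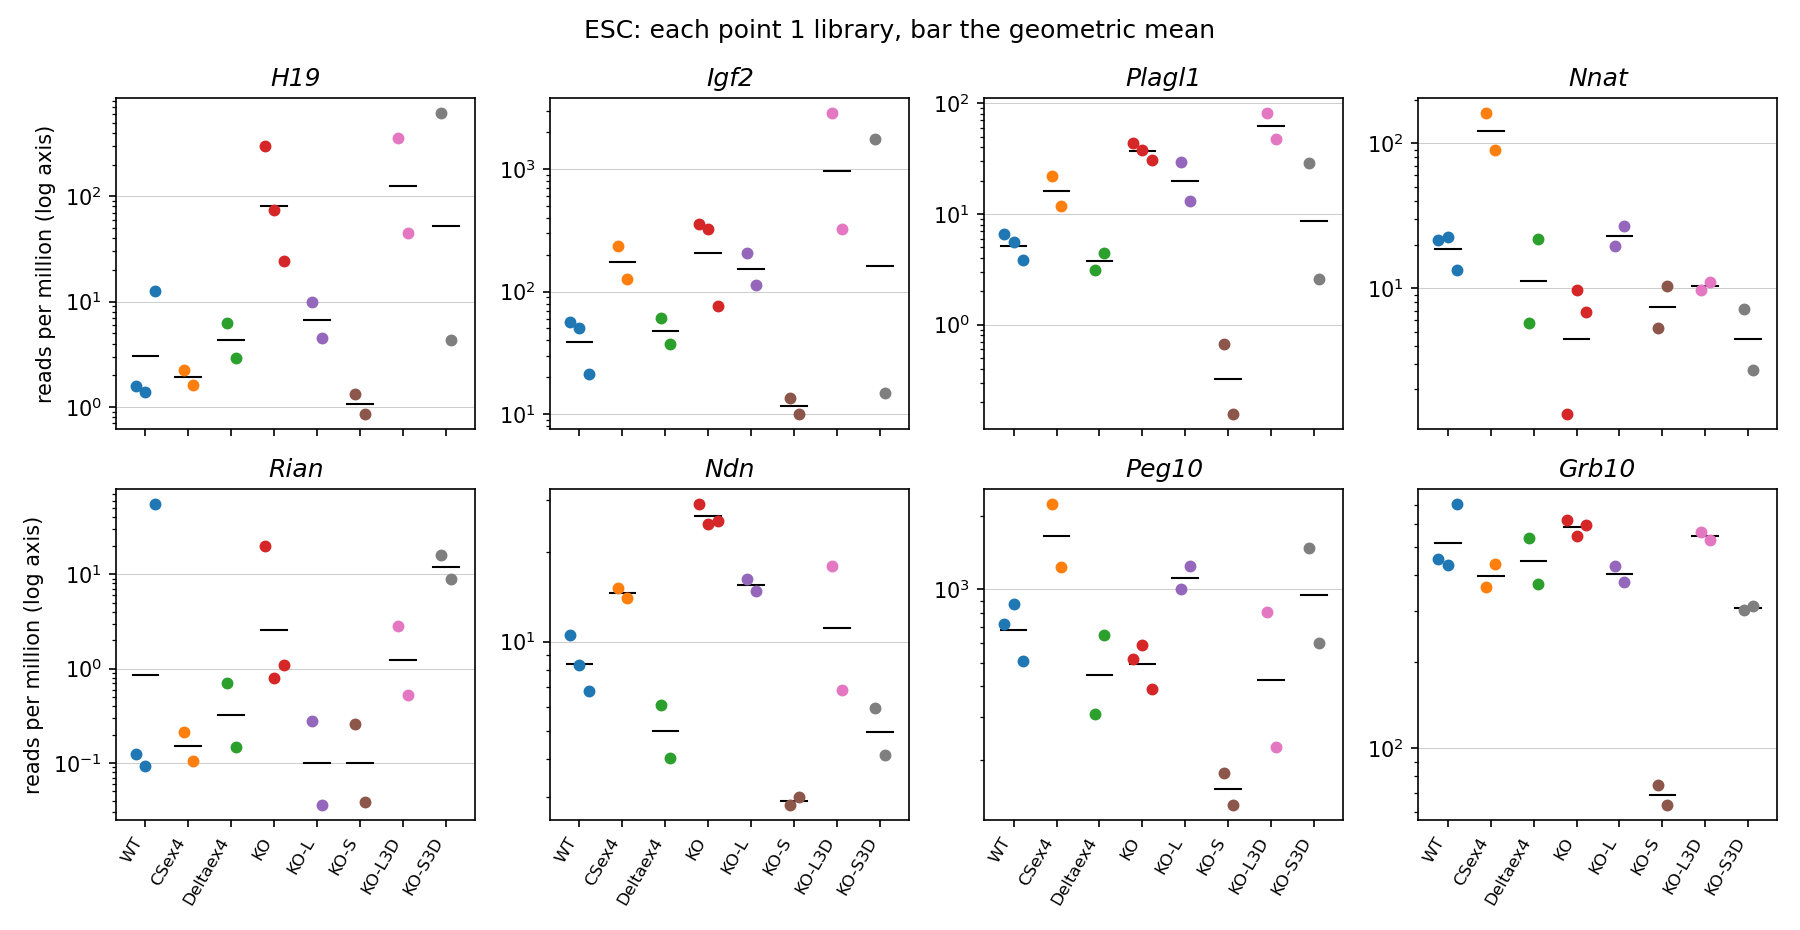
RPM (log axis) of 8 imprinted genes in each ESC library (points) by genotype, with the geometric mean of the group (bar). Grb10 and Peg10 lie lowest in both KO-S libraries, and the KO-S3D libraries stand apart for H19 and Igf2.

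With the short isoform put back, the picture in ESC was of lower levels across many clusters. In KO-S against WT, 13 of the 35 members tested fell, beside 3.63% of all genes tested that were lower, and only Zrsr1 rose, beside 4.28% that were higher. The member median was -1.37 on the log2 scale and that of all genes tested -0.02. The falls covered 4 of 9 tested members of distal 7 (H19, Igf2, Ascl2, Phlda2), 2 of 5 of central 7 (Ndn, Peg12), 2 of 5 of proximal 6 (Mest, Peg10) and Peg3, Rian, Grb10, Plagl1 and Nnat. Both parental classes were among them: 5 of 18 tested maternal and 8 of 17 tested paternal members fell.

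Grb10, an adaptor that restrains insulin and growth factor signalling, was at 74.9 and 63.4 RPM in KO-S against 453, 433 and 702 in WT. The 2 groups were far apart, with a log2 fold change of -3.15 (standard error 0.26, adjusted p = 1.17e-29, authors' deposited table). Plagl1 was at 0.664 and 0.156 against 6.54, 5.56 and 3.83, and its log2 fold change was -3.81 (standard error 0.72, adjusted p = 1.12e-05) in the authors' deposited table. Peg10, a retrotransposon-derived gene needed in the placenta, was at 176 and 130 against 720, 871 and 510. The authors' deposited table gave it -2.29 on the log2 scale (standard error 0.32, adjusted p = 4.13e-10).

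Phlda2 was at 12.3 and 8.74 RPM in KO-S against 44.3, 46.1 and 36.4 in WT, and Ascl2, a transcription factor of the trophoblast, at 0.479 and 0.078 against 1.60, 3.26 and 1.13. Neither gene overlapped between the groups. Their log2 fold changes in the authors' deposited table were -2.13 (adjusted p = 5.76e-08) and -3.21 (adjusted p = 0.0323). Ndn and Peg12 of central 7 were at -1.53 and -2.88 in the authors' deposited table (adjusted p = 0.0149 and 0.0411). Zrsr1, a splicing-factor relative inside an intron of Commd1, was at 27.3 and 31.9 against 18.4, 8.79 and 17.3, a log2 fold change of 1.11 (adjusted p = 0.037, authors' deposited table).

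Rian, a long noncoding RNA of the Dlk1-Meg3 domain, is the 1 call of this table in which the groups overlap. It was at 0.258 and 0.039 RPM in KO-S against 0.126, 0.0922 and 54.8 in WT. The call (log2 fold change -5.41, adjusted p = 0.0369, authors' deposited table) therefore rests on WT library c. Limma without a replicate block called 8 members in KO-S, all lower, of which 6 are among the 13 (Ascl2, Phlda2, Ndn, Peg12, Peg10, Grb10); the same count of 8 came without WT library c, while leaving out KO-S library a or b gave 3 or 1 and leaving out WT library a or b gave 5. The 7 visceral endoderm markers summed to 106 and 145 in KO-S against 2.49 to 58.2 in WT (58.2 in WT library c, and Ttr at 0 in WT), with no call in the authors' test, and the 7 trophoblast markers to 35.5 and 49.1 against 73.0 to 108, with Hand1 rising (2.28, adjusted p = 0.00412) and Tfap2c falling (-1.34, adjusted p = 0.000383) in the authors' deposited table. Of the 7 neural markers Sox1 rose and Pax6 fell. The part of these markers in the result was not tested.

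The long-isoform rescue gave 3 calls in ESC, all higher and all of paternally expressed genes. Of 34 members tested in KO-L against WT, Igf2, Peg3 and Plagl1 rose, beside 1.46% of all genes tested; none fell, beside 0.771% of all genes. Igf2 was at 208 and 114 RPM against 56.2, 50.3 and 21.2 in WT, Peg3 (a zinc finger protein) at 221 and 63.5 against 47.5, 37.3 and 41.0, and Plagl1 at 29.7 and 13.1 against 6.54, 5.56 and 3.83. In each the groups did not overlap, though the Peg3 libraries of KO-L were far apart. The log2 fold changes in the authors' deposited table were 2.18 (adjusted p = 2.21e-10), 1.54 (adjusted p = 0.00905) and 2.05 (adjusted p = 0.000142). Limma without a replicate block called no member here, and 12 had an unadjusted p under 0.05 in the authors' deposited table. Of the 5 mesenchyme markers 3 rose, with sums of 79.7 and 84.0 against 8.51 to 15.6 in WT. Of the 7 trophoblast markers Gata3, Esx1 and Hand1 rose, while the sum of that list, 91.7 to 94.9, lay within the WT range of 73.0 to 108. The part of either list was not tested.

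The long isoform of Suz12 holds exon 4 and the short one lacks it. With these rescues set against each other, 12 of the 40 members had a lower log2 fold change in KO-S than in KO-L and none a higher one, in a Wald test of the difference adjusted over 19926 genes; in that test 2.36% of all genes differed in either direction. The 12 were Igf2, Cdkn1c, Phlda2, Peg3, Ndn, Magel2, Peg12, Dlk1, Mest, Peg10, Grb10 and Plagl1. For Plagl1 the difference of the 2 log2 fold changes was -5.86 (standard error 0.83, adjusted p = 2.43e-09), for Igf2 -3.82 (standard error 0.49, adjusted p = 3.7e-11) and for Grb10 -2.64 (standard error 0.40, adjusted p = 2.41e-08). Cdkn1c, the inhibitor of cyclin-dependent kinases known as p57, was called against WT in neither rescue; it was at 44.5 and 52.0 RPM in KO-L and 13.9 and 8.31 in KO-S, and the difference was -2.25 (standard error 0.63, adjusted p = 0.0212). The rescues share the same WT libraries, and the standard error used leaves that out, which makes it too large. Suz12 was at 108 and 122 in KO-L and 142 and 143 in KO-S.

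**Figure D3:**
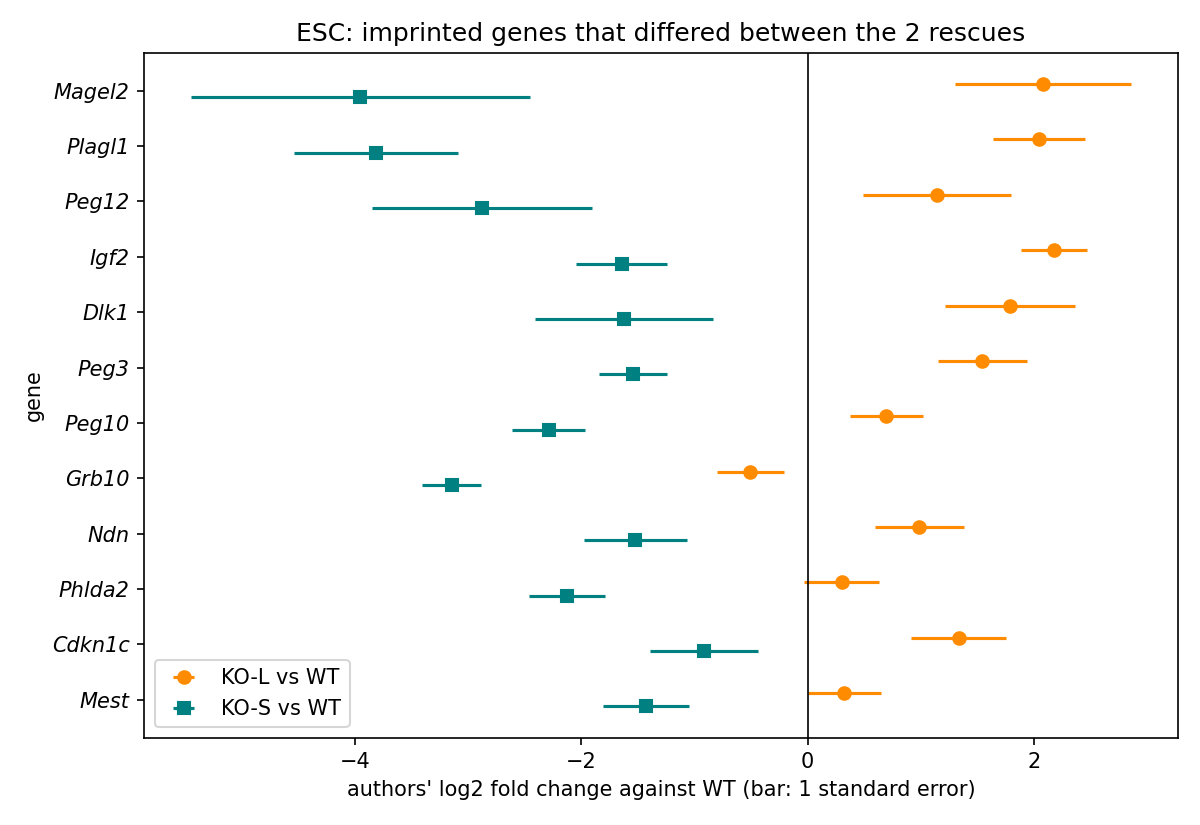
Log2 fold change against WT (points) with 1 standard error (bars), from the authors' deposited tables, in the long (circles) and short (squares) rescue, for the 12 imprinted genes whose fold changes differed between the rescues. KO-S lies left of KO-L for all 12; for Grb10 both lie below 0.

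With the 3D mutation in the long isoform, calls among members went both ways, as they did over all genes. In KO-L3D, 4 of 35 members tested rose (Igf2, Slc22a18, Kcnq1ot1, Plagl1), beside 8.22% of all genes tested, and 5 fell (Peg3, Ube3a, Mest, Peg10, Impact), beside 10.1%. Igf2 was at 2880 and 325 RPM against 56.2, 50.3 and 21.2 in WT, and its log2 fold change was 4.56 (standard error 0.37, adjusted p = 1.4e-31, authors' deposited table). Plagl1 was at 81.5 and 47.5, with a log2 fold change of 3.42 in the authors' deposited table (standard error 0.34, adjusted p = 7.75e-21). Kcnq1ot1, the noncoding RNA across which the Kcnq1 domain is silenced, was at 139 and 180 against 41.6, 38.4 and 46.4, a log2 fold change of 1.58 (adjusted p = 3.83e-06, authors' deposited table). Slc22a18, a transporter of that domain, was at 8.23 and 11.0 against 2.11, 1.14 and 3.36, and the authors' deposited table gave 1.94 (adjusted p = 0.00638). Of the 5 lower calls 4 did not overlap WT; Peg10 did, at 805 and 226 against 720, 871 and 510.

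In KO-S3D, Kcnq1ot1 rose and Mest and Nnat fell among 35 members tested, beside 2.05% and 1.18% of all genes. Kcnq1ot1 was at 112 and 191 RPM in KO-S3D, with a log2 fold change of 1.62 (standard error 0.40, adjusted p = 0.00384, authors' deposited table). Mest, an alpha/beta-hydrolase gene, was at 44.6 and 24.6 against 118, 123 and 63.6 in WT (log2 fold change -1.59, adjusted p = 0.0166, authors' deposited table). Nnat was at 7.23 and 2.71 against 21.4, 22.4 and 13.4 (log2 fold change -2.13, adjusted p = 0.00703, authors' deposited table). Limma without a replicate block called 6 members here, 3 in each direction, and 13 without WT library c or 2 without KO-S3D library a.

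Set against the unmutated rescue by the same Wald test, Igf2 and Kcnq1ot1 were higher and Peg3 and Peg10 lower in KO-L3D than in KO-L, where 2.84% of all genes differed. Kcnq1ot1, Peg10, Grb10 and Plagl1 were higher in KO-S3D than in KO-S, where 0.44% of all genes differed. The log2 fold changes differed by 1.71 (standard error 0.42, adjusted p = 0.00515) for Kcnq1ot1 in the long pair and by 2.36 (standard error 0.50, adjusted p = 0.00139) in the short pair. For Grb10 the short pair differed by 2.13 (standard error 0.45, adjusted p = 0.00139), with Grb10 at 301 and 311 RPM in KO-S3D and 74.9 and 63.4 in KO-S. Suz12 itself had log2 fold changes against WT of -1.85 in KO-L3D, -1.05 in KO-L and -1.82 in KO (authors' deposited tables). In KO-S3D and KO-S these were -0.06 and -0.83. The mutation and the level of Suz12 RNA cannot be told apart in either pair.

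The KO-S3D libraries stood far apart in several growth genes. In library a H19 was at 616 and in library b at 4.35 RPM, Igf2 at 1770 and 14.8, Cdkn1c at 197 and 8.81, Plagl1 at 28.6 and 2.59, and Sfmbt2 at 253 and 43.1. In all, 7 of the 34 members with a mean of at least 1 RPM were at least 4 times apart in this pair, beside 5.27% of all such genes. KO-L3D library a stood above library b in the same genes, with H19 at 354 and 44.8, Igf2 at 2880 and 325, and Cdkn1c at 160 and 10.4; 4 of 32 members were at least 4 times apart, beside 2.88%. The trophoblast marker sum moved with them, at 586 and 51.3 in KO-S3D a and b and 644 and 167 in KO-L3D a and b, and Hand1, a defining trophoblast factor, was at 201 and 2.27 and at 225 and 49.4. In both groups 2 of the 5 mesenchyme markers fell. The part of these markers in the result was not tested.

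Always including exon 4 raised 4 paternally expressed members in ESC. Of 34 tested in CSex4 against WT, Igf2, Peg10, Plagl1 and Nnat were higher, beside 1.72% of all genes tested, and none was lower, beside 0.695%; 11 members had an unadjusted p under 0.05. Nnat was at 162 and 90.6 RPM against 21.4, 22.4 and 13.4 in WT, a log2 fold change of 2.72 (standard error 0.40, adjusted p = 1.03e-07, authors' deposited table). Igf2 was at 236 and 127 (log2 fold change 2.32, adjusted p = 0.000108), Plagl1 at 22.2 and 11.9 (1.73, adjusted p = 0.0192) and Peg10 at 2230 and 1240 (1.24, adjusted p = 0.0475), all in the authors' deposited table and all without overlap with WT. Limma without a replicate block called Nnat only; without CSex4 library b it called 4, without WT library b 2, and without CSex4 library a, WT library a or WT library c none. Mesenchyme markers moved with this group, 3 of 5 rising, with sums of 65.5 and 35.9 against 8.51 to 15.6 in WT. The pluripotent markers Nanog and Esrrb fell, with list sums of 1900 and 2750 against 3380 to 4630, and the trophoblast markers Cdx2 and Gata3 rose, with list sums of 99.6 and 72.8 against 73.0 to 108. The part of these lists was not tested.

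Deleting exon 4 gave no call among 39 members tested in ESC, where 0.0% of all genes were higher and 0.0% lower. With the authors' test 1 member had an unadjusted p under 0.05, and limma called none. The 2 libraries differed most in Mest, at 69.3 and 0.330 RPM. The difference between Deltaex4 and CSex4 passed the Wald test for Nnat alone, at -3.43 (standard error 0.74, adjusted p = 0.0146), where 0.0502% of all genes differed. Nnat was at 5.72 and 21.9 in Deltaex4 against 162 and 90.6 in CSex4.

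In NP lacking Suz12 the distal 7 cluster held 5 of the 8 calls against the first WT pair and 6 of the 13 against the second. Against the first WT pair, 6 of 37 members tested rose (H19, Phlda2, Slc22a18, Cd81, Peg3, Slc22a3), beside 11.6% of all genes, and 2 fell (Kcnq1ot1, Meg3), beside 9.85%. Against the second WT pair, in a table that gives WT over KO, 11 of 37 were lower in WT than in KO, beside 17.3% of all genes, and 2 were higher, beside 15.6%. Of the 19 maternal members tested 5 rose against the first pair and 8 were above the second pair; of the 18 paternal members these counts were 1 and 3. Both tables rest on the same KO libraries and are not independent.

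H19 was at 2130 and 1560 RPM in NP KO against 951 and 450 in the first WT pair and 297 and 308 in the second. Its log2 fold change was 1.44 (standard error 0.39, adjusted p = 0.00184, authors' deposited table) against the first pair. Phlda2 was at 41.8 and 16.3 against 7.20 and 3.96 and against 2.69 and 4.13, a log2 fold change of 2.25 (standard error 0.52, adjusted p = 0.000196, authors' deposited table). Slc22a18 was at 13.1 and 4.92 against 1.13 and 1.23 and against 0.826 and 1.25; the authors' deposited table gave it 2.74 (standard error 0.62, adjusted p = 0.000136). Cd81, a tetraspanin at the edge of the domain, was at 324 and 439 against 197 and 143 and against 159 and 153, a log2 fold change of 1.13 (adjusted p = 0.00369, authors' deposited table). Each of these genes was higher in both KO libraries than in all 4 WT libraries.

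Slc22a3, a cation transporter of the Igf2r domain, was at 5.22 and 4.77 RPM in KO against 0.396, 0.399, 0.297 and 0.812 in WT. Its log2 fold change of 3.61 was the largest of the table among members called (standard error 0.77, adjusted p = 4.66e-05, authors' deposited table). Peg3 was at 1540 and 1150 against 891, 386, 467 and 372, with 1.14 in the authors' deposited table (adjusted p = 0.0216). Kcnq1ot1 was at 41.1 and 17.0 in KO against 60.5 and 59.2 in the first pair, where it was called lower (-1.21, adjusted p = 0.0159, authors' deposited table), and against 25.9 and 50.5 in the second, where it was not.

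Against the second WT pair Igf2 and Igf2r were also higher in KO: Igf2 was at 2310 and 2350 against 711 and 809, and Igf2r, the receptor that clears IGF2, at 509 and 544 against 205 and 226. WT over KO was -1.54 for Igf2 (adjusted p = 6.34e-09) and -1.21 for Igf2r (adjusted p = 1.41e-05) in the authors' deposited table. Igf2 was at 2110 and 1130 in the first pair, below both KO libraries. It was not called there (log2 fold change 0.56, adjusted p = 0.258, authors' deposited table). Peg12 and Nnat were the 2 lower in KO there, with WT over KO of 1.41 and 1.31 (adjusted p = 3.12e-05 and 1.48e-05, authors' deposited table). Neural markers moved with this knock-out, 6 of 7 falling against the first WT pair with sums of 111 and 117 against 412 and 1190, and 4 of 7 trophoblast markers rose, with sums of 401 and 252 against 78.1 to 140; neither list had a marker at 0. Against the second pair all 7 trophoblast markers were higher in KO, and the endoderm markers Gata4, Gata6 and Foxa2 were higher against both pairs. Other endoderm markers of that list went the other way. Afp (-2.25, adjusted p = 6.18e-10) and Apoa1 (-1.10, adjusted p = 0.00739) were lower in KO against the first pair (authors' deposited table). The part of these markers was not tested.

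**Figure D4:**
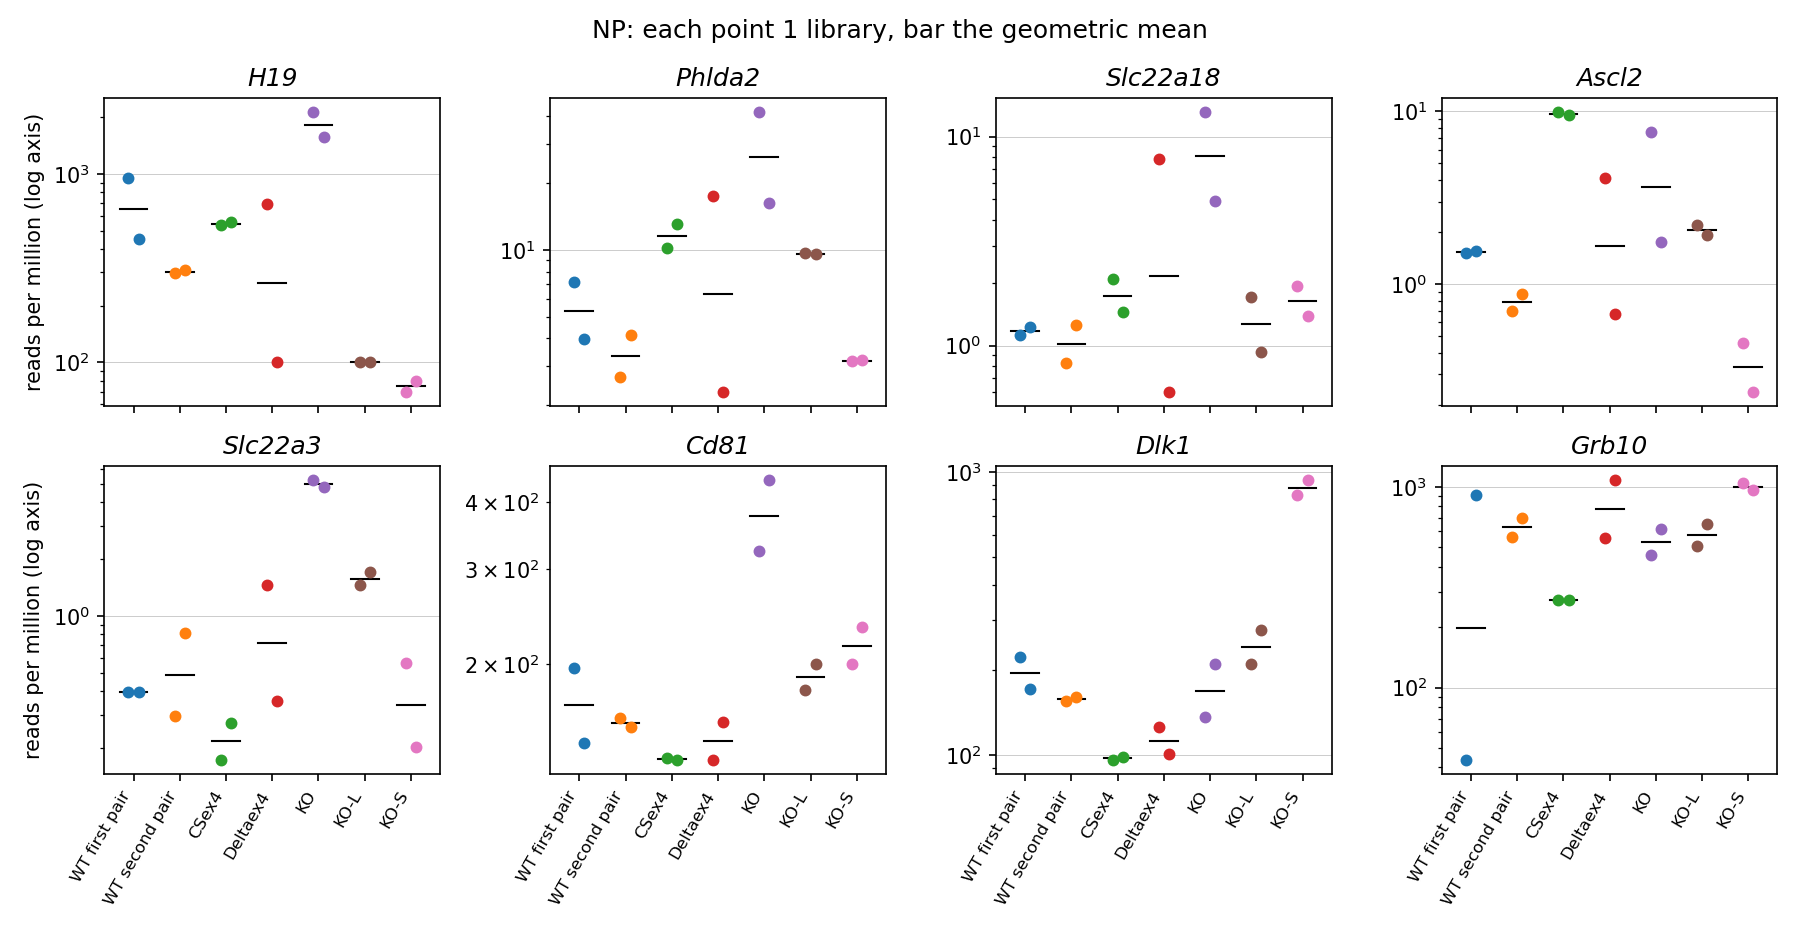
RPM (log axis) of 8 imprinted genes in each NP library (points) by genotype, with the geometric mean of the group (bar); the 2 WT pairs are shown apart. H19, Phlda2, Slc22a18, Slc22a3 and Cd81 are highest in the KO libraries on average, and Grb10 is at 43.6 and 906 in the first WT pair.

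The effect of the knock-out differed between ESC and NP in 6 members. The Wald test of the difference ran over 20188 genes, of which 9.65% differed, and the tables share no library. Phlda2 and Impact had higher log2 fold changes in NP than in ESC, by 2.50 (standard error 0.57, adjusted p = 0.000409) and 1.65 (standard error 0.38, adjusted p = 0.000452). Plagl1, Peg12, Dlk1 and Kcnq1ot1 had lower ones, by -3.50 (adjusted p = 1.45e-12), -2.02 (adjusted p = 0.0111), -1.67 (adjusted p = 0.0203) and -1.40 (adjusted p = 0.031). H19 rose in both, and its difference of -2.97 did not pass (standard error 1.22, adjusted p = 0.114). With the second WT pair 10 members differed, 5 of these 6 among them.

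Putting the long isoform back into the NP knock-out lowered distal 7 genes again. In KO-L against KO, 10 of 38 members tested were lower, beside 13.8% of all genes, and Dlk1 and Mest were higher, beside 10.9%. H19 was at 100 and 101 RPM in KO-L against 2130 and 1560 in KO, below every WT library (297 to 951), and its log2 fold change was -4.13 (standard error 0.18, adjusted p = 1.29e-108, authors' deposited table). Phlda2 (9.69 and 9.55 against 41.8 and 16.3), Slc22a18 (1.71 and 0.933 against 13.1 and 4.92) and Cd81 (179 and 200 against 324 and 439) were lower too, with log2 fold changes of -1.40, -2.63 and -0.95 in the authors' deposited table (adjusted p = 0.000254, 1.1e-06 and 1.45e-05). Rian was at 0.428 and 0.679 against 9.47 and 7.93, a log2 fold change of -3.95 (adjusted p = 2.35e-11, authors' deposited table). In the Igf2r domain Slc22a3 (-1.62, adjusted p = 0.0204) and Airn (-1.98, adjusted p = 0.00716) fell, from the authors' deposited table. Ndn, Peg10 and Sgce were lower by less than 1 on the log2 scale.

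The short isoform moved more members, in both directions. In KO-S against KO 13 of 37 members tested were lower, beside 18.0% of all genes, and 8 were higher, beside 16.4%. H19 was at 69.8 and 79.6 RPM (log2 fold change -4.53, standard error 0.17, adjusted p = 5.68e-147, authors' deposited table), Phlda2 at 3.16 and 3.19 (-2.96, adjusted p = 6.01e-16), Ascl2 at 0.456 and 0.237 against 7.59 and 1.75 in KO (-3.44, adjusted p = 1.46e-05) and Slc22a18 at 1.93 and 1.39 (-2.22, adjusted p = 2.07e-05). Sfmbt2, a Polycomb-group gene of the placenta, was at 37.0 and 28.0 against 166 and 147, a log2 fold change of -2.19 (standard error 0.18, adjusted p = 1.42e-32, authors' deposited table). Slc22a3 and Airn fell as well, with Slc22a3 at 0.562 and 0.203 against 5.22 and 4.77 (-3.73, adjusted p = 7.25e-07, authors' deposited table). Dlk1 rose most, to 828 and 936 against 136 and 209 in KO and 155 to 221 in WT; the authors' deposited table gave 2.47 (standard error 0.17, adjusted p = 2.3e-48). Igf2, Usp29, Ppp1r9a, Grb10, Zrsr1, Plagl1 and Gnas were the others higher, by 0.51 to 1.00 on the log2 scale. The groups overlapped for Ppp1r9a, Airn and Nnat.

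Compared with each other, the rescues of NP differed in 8 members by the Wald test, beside 7.03% of all genes. Dlk1, Ppp1r9a, Grb10, Plagl1 and Gnas had higher log2 fold changes with the short isoform, and Phlda2, Nnat and Sfmbt2 lower ones. For Dlk1 the difference was 1.91 (standard error 0.26, adjusted p = 1.97e-11) and for Sfmbt2 -2.13 (standard error 0.26, adjusted p = 3.37e-13). H19 did not pass, at -0.39 with a standard error of 0.25 (adjusted p = 0.535). Markers separate these groups as well: neural markers summed to 345 and 465 in KO-L and 532 and 549 in KO-S, mesenchyme markers to 683 and 749 and to 143 and 130, and pluripotent markers to 1480 and 1030 and to 285 and 241. Trophoblast markers moved with the lower genes of both rescues: against KO, all 7 fell in KO-S, while in KO-L Gata3, Elf5 and Krt7 fell and Tfap2c rose, with sums of 103 to 111 in KO-S, 126 to 148 in KO-L and 252 to 401 in KO. Of the 7 visceral endoderm markers 4 fell in each rescue, Gata4, Sox17 and Foxa2 in both. What part these markers had in either rescue was not tested.

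In NP with exon 4 always included, 3 of the 4 members of the Dlk1-Meg3 domain fell against the first WT pair. Of 35 members tested in CSex4 against the first WT pair, Dlk1, Meg3, Rian, Mest, Usp29 and Plagl1 fell, beside 1.45% of all genes tested, and Ascl2 and Sfmbt2 rose, beside 4.08%. Dlk1 was at 96.0 and 98.2 RPM against 221 and 171 in the first pair, Meg3 at 2.15 and 1.53 against 4.48 and 24.0, and Rian at 2.71 and 3.25 against 7.81 and 23.7. Their log2 fold changes were -1.04 (adjusted p = 0.0177), -2.58 (adjusted p = 0.000143) and -2.24 (adjusted p = 0.000767) in the authors' deposited table. The second WT pair, at 1.38 and 8.93 for Meg3 and 2.82 and 11.5 for Rian, overlaps CSex4 for both, and limma without a replicate block called Dlk1 alone of the 3. Mirg was not called (-0.92, adjusted p = 0.89, authors' deposited table). Mest was at 79.4 and 82.3 against 307 and 314 (-1.98, standard error 0.30, adjusted p = 1.15e-08, authors' deposited table), below all 4 WT libraries. Ascl2 was at 9.93 and 9.50 against 1.52 and 1.56 (2.62, standard error 0.51, adjusted p = 2.53e-05, authors' deposited table).

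The 2 CSex4 libraries of NP were more alike than any other pair of a group: the spread between them was 1.85 times the counting noise, against 4.86 to 38.7 in the other pairs. Of 6 pluripotent markers 5 rose in this group, the neural markers Sox1, Pax6 and Nes fell, and the trophoblast markers Hand1, Krt7 and Tfap2c rose, with trophoblast sums of 369 and 368 against 140 and 78.1 in the first WT pair. Their part in the calls was not tested. Limma without a replicate block called 3 members, none without either CSex4 library and 8 without library a of the first WT pair. In Deltaex4, Meg3 alone fell among 37 members tested, beside 0.052% of all genes lower and 0.0289% higher. It was at 1.78 and 0.142 against 4.48 and 24.0, a log2 fold change of -4.14 (standard error 0.99, adjusted p = 0.0394, authors' deposited table), and the second WT pair overlaps it. The Wald test found no member that differed between Deltaex4 and CSex4 in NP, where 1.22% of all genes differed; 4 had an unadjusted p under 0.05.

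**Figure D5:**
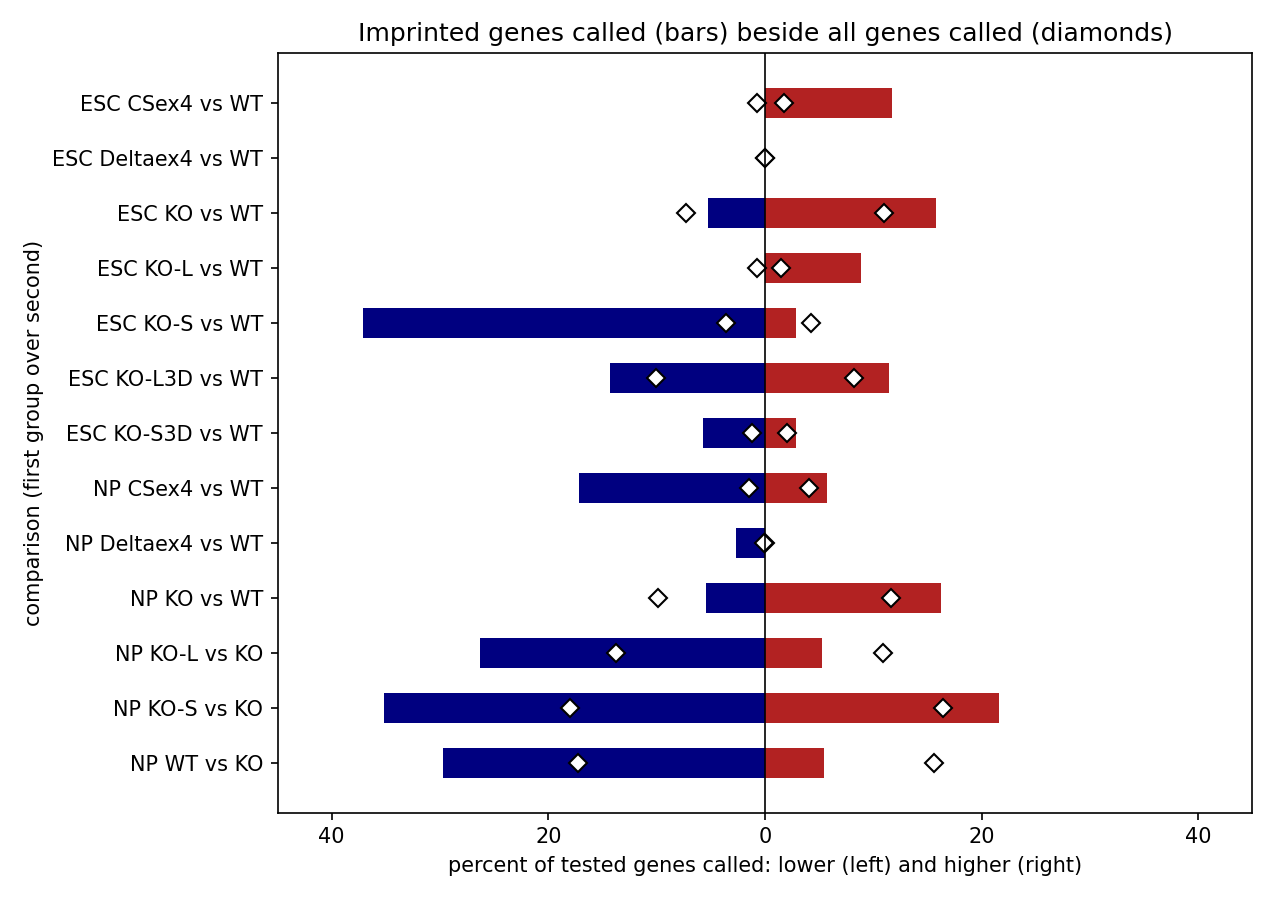
Percent of tested imprinted genes called lower (blue, left) and higher (red, right) in each comparison (bars), beside the same percent over all tested genes (diamonds), from the authors' deposited tables. In ESC KO-S the lower bar, 13 of 35 genes, stands far beyond its diamond at 3.63%.

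Noncoding RNAs of the distal 12 domain were high in single ESC libraries. Rian was at 54.8 RPM in WT library c and at 0.126 and 0.0922 in WT a and b. In the KO it was at 20.0, 0.788 and 1.09, in KO-S3D at 15.9 and 8.89, and in the other ESC libraries at no more than 2.82. Meg3 was at 8.40 in WT c with no read in WT a or b, 2.73 in KO a and 10.2 and 5.70 in KO-S3D. Mirg, the host of a microRNA cluster downstream, was at 2.41 in WT c and at most 0.773 in any other ESC library. Dlk1, on the paternal copy of the same domain, was at 1.53 in WT c and 2.45 and 2.55 in the others. Meg3 was called in no ESC table.

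Among libraries of the NP groups, Grb10 stood out in the first WT pair, at 43.6 and 906 RPM. Visceral endoderm markers summed to 1060 and 113 in these libraries and neural markers to 412 and 1190; their part was not tested. In NP Deltaex4 library a, H19 (689 and 101), Phlda2 (17.5 and 2.30), Slc22a18 (7.79 and 0.602) and Ascl2 (4.13 and 0.673) were above library b and Mest (47.6 and 351) below it. Trophoblast markers summed to 333 and 43.2 there.

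The ChIP-seq data enter as 2 lists of regions, 2865 for Suz12 and 6882 for H3K27me3, which the authors drew up at a false discovery rate of 5%; the lists do not say in which direction a region changed or against which group. A start site in the RefSeq promoter table (GRCm38.p6, the mm10 genome) was found for 34 members; H19, Cdkn1c, Kcnq1, Peg10, Sgce and Impact had no entry. Of the 34, 14 had a start within 2500 bp of a Suz12 region, 41.2% beside 7.79% of 27025 genes, and 14 within 2500 bp of an H3K27me3 region, 41.2% beside 15.0%. The median CpG count at the start was 15.5 for the members and 8 for all genes. The part of CpG content in these region shares was not tested. The 10 with both were Igf2, Ascl2, Phlda2, Magel2, Peg12, Dlk1, Slc22a3, Grb10, Gnas and Sfmbt2. Peg3, Usp29, Snrpn and Airn had a Suz12 region only, and Ndn, Mest, Igf2r and Plagl1 an H3K27me3 region only. Members without an entry were read by overlap with the whole gene and not by start site. Cdkn1c (chr7:143458339-143461059) and Kcnq1 overlapped both kinds of region, Peg10 a Suz12 region and Sgce an H3K27me3 region. A Suz12 region also lay 31 bp outside the Sgce gene. The nearest Suz12 region lay 79451 bp from H19 (chr7:142575530-142578146) and the nearest H3K27me3 region 75476 bp.

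Reading the regions beside the expression, 6 of 11 tested members at a Suz12 region and 5 of 19 tested members away from one fell in ESC KO-S, with medians of -1.82 and -0.57 on the log2 scale. In ESC KO 3 of 13 and 2 of 19 rose, and in NP KO 3 of 13 and 2 of 18. These counts are small and were not tested. The same counts over all genes at and away from a Suz12 region are not given here. No trait particular to imprinted genes can be read from the member counts.

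Start-site sequences, credited to RefSeq (GRCm38.p6), are given for 2 sets of members that moved together. The first set holds distal 7 and proximal 17 genes that were higher in NP KO than in the second WT pair, to show how unlike their CpG content is; all CpG pairs are in capitals. The windows run from 250 bases before to 50 bases after the start, 5′ to 3′ on the gene's strand. Phlda2 lies at chr7:143502475-143502774 and Ascl2 at chr7:142969215-142969514, both on the minus strand, and each start is inside a Suz12 and an H3K27me3 region. Slc22a3 lies at chr17:12507655-12507954 on the minus strand and is also inside both, with few CpG pairs. Slc22a18 lies at chr7:143473539-143473838 on the plus strand and has neither region within 2500 bp.
Phlda2: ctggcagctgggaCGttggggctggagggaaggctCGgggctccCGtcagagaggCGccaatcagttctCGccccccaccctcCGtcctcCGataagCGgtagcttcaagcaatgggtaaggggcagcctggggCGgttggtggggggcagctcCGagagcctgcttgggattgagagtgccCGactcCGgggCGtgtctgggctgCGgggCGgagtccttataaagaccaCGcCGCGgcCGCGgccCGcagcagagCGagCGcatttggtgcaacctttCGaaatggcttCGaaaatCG
Ascl2: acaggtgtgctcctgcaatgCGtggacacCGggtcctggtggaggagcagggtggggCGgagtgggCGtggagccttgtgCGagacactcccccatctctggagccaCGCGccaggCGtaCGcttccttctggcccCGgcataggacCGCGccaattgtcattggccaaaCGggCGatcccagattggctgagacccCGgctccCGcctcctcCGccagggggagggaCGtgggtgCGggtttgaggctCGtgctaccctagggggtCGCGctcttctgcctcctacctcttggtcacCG
Slc22a3: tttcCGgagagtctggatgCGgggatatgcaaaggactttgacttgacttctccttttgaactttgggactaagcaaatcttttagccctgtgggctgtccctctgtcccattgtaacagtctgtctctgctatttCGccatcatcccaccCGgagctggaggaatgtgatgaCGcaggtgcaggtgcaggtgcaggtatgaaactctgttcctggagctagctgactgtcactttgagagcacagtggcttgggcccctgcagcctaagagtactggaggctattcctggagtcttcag
Slc22a18: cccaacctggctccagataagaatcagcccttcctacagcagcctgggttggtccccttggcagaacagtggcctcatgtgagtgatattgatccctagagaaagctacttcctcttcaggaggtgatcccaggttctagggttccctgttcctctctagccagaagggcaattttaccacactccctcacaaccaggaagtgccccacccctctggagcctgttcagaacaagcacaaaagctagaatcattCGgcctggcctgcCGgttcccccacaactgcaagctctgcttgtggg
These windows hold 26, 23, 5 and 2 CpG pairs, so genes with a CpG-rich and a CpG-poor start were both among those higher in the NP knock-out. The median over all 32851 windows is 7 and over the 49 windows of members 13.

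The second set holds 4 of the genes that both fell in ESC KO-S and hold the hexamer TGCCGC, the known core of the ZFP57 motif. The hexamer or its reverse complement GCGGCA is in capitals. Mest lies at chr6:30737800-30738099 (plus strand), Plagl1 at chr10:13090582-13090881 (plus), Nnat at chr2:157559828-157560127 (plus) and Grb10 at chr11:12037371-12037670 (minus).
Mest: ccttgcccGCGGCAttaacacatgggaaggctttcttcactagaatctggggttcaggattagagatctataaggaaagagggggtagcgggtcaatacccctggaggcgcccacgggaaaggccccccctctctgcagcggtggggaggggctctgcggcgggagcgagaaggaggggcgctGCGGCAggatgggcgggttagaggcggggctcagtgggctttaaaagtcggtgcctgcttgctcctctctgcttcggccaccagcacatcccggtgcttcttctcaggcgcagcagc
Plagl1: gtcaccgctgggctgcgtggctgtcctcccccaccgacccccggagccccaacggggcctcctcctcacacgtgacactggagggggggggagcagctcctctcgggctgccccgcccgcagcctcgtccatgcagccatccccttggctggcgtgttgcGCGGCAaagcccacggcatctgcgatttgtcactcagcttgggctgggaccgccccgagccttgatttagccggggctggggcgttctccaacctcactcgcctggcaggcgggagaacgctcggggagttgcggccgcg
Nnat: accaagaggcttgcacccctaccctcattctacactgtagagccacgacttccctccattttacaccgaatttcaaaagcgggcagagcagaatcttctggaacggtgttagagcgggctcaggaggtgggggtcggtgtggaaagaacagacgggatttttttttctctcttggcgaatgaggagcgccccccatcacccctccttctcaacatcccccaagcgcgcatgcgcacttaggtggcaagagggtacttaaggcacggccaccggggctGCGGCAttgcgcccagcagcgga
Grb10: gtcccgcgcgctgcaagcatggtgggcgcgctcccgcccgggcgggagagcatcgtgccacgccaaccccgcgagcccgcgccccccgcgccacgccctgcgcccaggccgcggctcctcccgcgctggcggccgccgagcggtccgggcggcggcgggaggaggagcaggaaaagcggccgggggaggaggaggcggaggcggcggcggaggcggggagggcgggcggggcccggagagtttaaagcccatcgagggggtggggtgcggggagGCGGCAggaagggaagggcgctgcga
The hexamer was searched on both strands and does not overlap another motif searched. It was found in a window of 10 of the 34 members, 29.4% beside 13.1% of 27025 genes (Igf2, Zim1, Snrpn, Meg3, Mest, Copg2, Slc22a2, Grb10, Plagl1, Nnat). By window, it was in 22.4% of those of members and 11.6% of all. The hexamer itself holds a CpG, and the median CpG count was 15.5 for the members and 8 for all genes. The part of CpG content in these shares was not tested. Mest held 2 copies and the other 3 printed windows 1 each. Zim1, Snrpn, Meg3, Copg2 and Slc22a2 hold the hexamer and were not called lower in ESC KO-S. Ascl2, Phlda2, Ndn, Peg12, Peg3 and Rian fell there without it. Whether the hexamer goes with the fall was not tested. A match is only a run of letters and ZFP57 binding was not measured here.

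The factors that keep imprints were read as a list of 12. In ESC the ZFP57 gene itself was higher in 4 groups: Zfp57 was at 237, 223 and 297 RPM in KO, 255 and 245 in KO-S, 439 and 650 in KO-L3D and 570 and 576 in KO-S3D, against 94.9, 98.4 and 163 in WT. The log2 fold changes of Zfp57 were 0.95 (adjusted p = 0.00145), 0.83 (adjusted p = 0.0349), 1.75 (adjusted p = 1.45e-08) and 2.01 (adjusted p = 1.48e-05) in the authors' deposited tables, and all 4 groups lay above WT without overlap. The de novo methyltransferase gene Dnmt3b fell in KO-S (-1.59, adjusted p = 0.000435) and in KO-L3D (-1.59, adjusted p = 1.2e-05) in the authors' deposited tables. Dppa3, which guards methylation in the early embryo, fell in both. Dnmt3a, also a de novo methyltransferase gene, fell in KO-L3D (-1.98, adjusted p = 2.98e-09, authors' deposited table). The shares of all genes called in these ESC comparisons are given with each group above. In NP KO 4 of the 12 fell against the first WT pair (Zfp57, Dnmt1, Uhrf1, Dppa3), beside 9.85% of all genes, and none rose, beside 11.6%. Against the second pair 5 were lower in KO (Zfp57, Zfp445, Dnmt1, Uhrf1, Ctcf), beside 15.6% of all genes, and Dnmt3b and Dnmt3l were higher, beside 17.3%; Dppa3 was not called there. The maintenance methyltransferase gene Dnmt1 was at -1.24 against the first pair (standard error 0.35, adjusted p = 0.00363, authors' deposited table).

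A list of 27 further imprinted genes that are not members was read the same way. In ESC KO, Dio3 rose among 23 tested, beside 11.0% of all genes, and Zdbf2, Gab1 and Jade1 fell, beside 7.27%. In NP KO against the first WT pair, 7 of 26 tested rose, beside 11.6%, and 4 fell, beside 9.85%; against the second pair 10 were higher in KO, beside 17.3%, and 5 lower, beside 15.6%. Dio3, the thyroid hormone deiodinase at the end of the distal 12 domain, had log2 fold changes of 6.48 (standard error 0.51, adjusted p = 2.17e-33) in ESC KO and 3.11 (standard error 0.50, adjusted p = 1.39e-08) in NP KO in the authors' deposited tables. The ESC KO-L and KO-L3D tables gave Dio3 3.60 and 4.86 (adjusted p = 0.00226 and 5.72e-11, authors' deposited tables). Peg13 fell most in NP KO, at -5.69 against the first WT pair (standard error 0.51, adjusted p = 3.46e-26, authors' deposited table). WT over KO with the second pair was 6.36 for Peg13 (adjusted p = 1.83e-50, authors' deposited table). It also fell in ESC KO-L3D (-5.08, adjusted p = 1.51e-06, authors' deposited table).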

How the data were processed

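Polyadenylated RNA of 32 samples was sequenced; 55 ChIP-seq samples of the series enter as region lists. Per the submitters' processing notes, TopHat, Bowtie, DESeq2 and DiffBind were used, with the builds mm10 and dm3; versions and the annotation are not given in the sources used here. Each of the 13 tables deposited by the authors holds, for 26171 symbols, a mean signal (reads divided by size factors, averaged over the libraries of the comparison), a log2 fold change with its standard error, and a p-value with its adjusted value. The deposited test score, the fold change divided by its standard error per the file headers and values, was not used. Per the labels, the tables' names carry the word paired. The deposited region lists hold a DiffBind value per region, which was not used.

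The deposited mean is a sum of whole reads times a weight per library. The weights were read from genes with a single read, and whole reads of all genes were solved jointly over the tables that share libraries (26171 of 26171 genes in each cell type, relative residual at most 6.98e-15, tolerance 2e-14). On simulated reads, 294 of 300 genes (ESC) and 300 of 300 (NP) came back exactly. The fold changes, which the solution did not use, were matched: over genes with at least 100 reads in every library, 98.6% to 100.0% lay within 0.01 (log2) of the ratio of the recovered reads, once WT library a was left out of 6 ESC tables. For members the largest gap was 0.0331 over 323 values. No column of unmapped samples was present (0).

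Calls are the authors' adjusted p under 0.05 (DESeq2, Benjamini-Hochberg). Differences between tables were tested with a Wald test and adjusted over all genes (scipy); the planned count test was replaced, since the files hold statistics. Alternatives were a threshold of 0.01, adjustment over all genes, a mean of at least 10, an absolute log2 fold change of at least 1, the other pair of NP WT libraries, and, chosen after seeing the data, limma (voom, genes with at least 10 reads in 2 libraries) on recovered reads with no replicate block and with each library left out. Members described are those called at least once with a mean of at least 10; values are given for the largest changes of a cluster. The members and all lists were chosen with earlier results of these data known.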

Additional observations from a re-analysis of the deposited data

Results flagged for a closer look

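In NP WT, where 4 libraries allow a test of a sample that stands apart and 34 members were tested, the lowest library lay far from the other 3 for Peg12 (18.0 RPM) and Nnat (97.9 RPM); both values are of library a of the first WT pair. Chance flags about 1 in 20 such groups. The effect of the Suz12 knock-out (log2 fold change in NP minus that in ESC) differed between the cell types, by the Wald test, for Phlda2 (2.50), Kcnq1ot1 (-1.40), Peg12 (-2.02), Dlk1 (-1.67), Plagl1 (-3.50) and Impact (1.65). Peg12 is in both groups of results, and its NP value rests on the pair that holds the low library.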

How the results depend on the processing

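Counts of called members stayed within 1.5 times for all 13 comparisons when p-values were adjusted over all genes or over genes with a mean of at least 10. At an adjusted p under 0.01 the count was 2 in ESC CSex4, 8 in ESC KO-S, 4 in NP CSex4, 0 in NP Deltaex4 and 6 for NP KO-L over KO. With an absolute log2 fold change of at least 1 it was 6 for that comparison and 11 for NP KO-S over KO. With the other pair of NP WT libraries 13 members were called in NP KO and 10 differed between ESC and NP. Requiring a mean of at least 10 in each of the 2 tables compared, the difference between ESC KO-L3D and KO-L passed for 7 members. Moving the start-site limit to 10000 bp or to inside a region left both region counts within 1.5 times.

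The authors' fits are paired, and limma without the replicate block called 1 member in ESC CSex4, 0 in ESC KO-L, 8 in ESC KO-S, 6 in ESC KO-S3D, 3 in NP CSex4, 0 in NP Deltaex4, 5 for NP KO-L over KO and 12 for NP KO-S over KO; the other 5 comparisons stayed within 1.5 times. All 104 calls kept their sign there and 56 were called. The cause was not tested; the recovered libraries carry no replicate number, so no blocked fit was run on them. With 1 library left out, these counts ranged from 0 to 4 in ESC CSex4, 0 to 0 in ESC Deltaex4, 3 to 6 in ESC KO, 0 to 1 in ESC KO-L, 1 to 8 in ESC KO-S, 6 to 10 in ESC KO-L3D, 2 to 13 in ESC KO-S3D, 0 to 8 in NP CSex4, 0 to 8 in NP Deltaex4, 8 to 16 in NP KO, 1 to 6 for NP KO-L over KO, 5 to 9 for NP KO-S over KO and 8 to 12 for NP WT over KO. A group left with 1 library was assumed to vary like the others. For the NP groups, leaving out KO library a (2), KO-L library a (1) or KO-L library b (2) lowered the count of KO-L over KO, KO-S library a (5) that of KO-S over KO, and either library of the second WT pair (8 and 9) that of WT over KO; leaving out library b of the first WT pair raised Deltaex4 to 8 and leaving out Deltaex4 library b to 1. In ESC, leaving out KO-L library b gave 1 call in KO-L. Members such as Slc22a2, Snrpn and Mirg had too few counted reads for a difference to be detectable. Since Snrpn reads cannot be told apart from those of Snurf, its low count is not read as low expression.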
